A study of Mus musculus with 9 samples.

Results

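The 9 genes described here, Krt5, Krt14, Trp63, Kit, Lgr5, Neurog1, Neurod1, Mki67 and Top2a, mark the horizontal and globose basal cells of the mouse olfactory epithelium (OE), their committed daughters and cells in division. They were chosen by symbol, as known markers of these cells, from the 23607 genes of each count table. The libraries came from a search for the receptors that respond to heptanal, an aldehyde odorant. Each of the 9 libraries held mRNA pulled down from the OE of a C57BL/6 mouse with an antibody against phosphorylated ribosomal protein S6 (pS6-IP), a mark that rises on the ribosomes of recently active neurons. Mice were exposed for 1 hr to distilled water (control), 1% heptanal or 100% heptanal. There were 3 mice in each group, 1 at each of postnatal days 22, 21 and 18 (replicates 1, 2 and 3), and per the study's methods the mice of a replication were littermates of the same sex. No input RNA was analysed here, so each level combines the abundance of an mRNA with its recovery in the pulldown, and fewer cells of a type cannot be told apart from less RNA per cell.

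The OE renews its sensory neurons throughout life. Horizontal basal cells (HBCs) lie flat on the basal lamina, carry the keratins KRT5 and KRT14 and the transcription factor p63 (Trp63), and act as a mostly quiescent reserve. Globose basal cells (GBCs) divide more often and include Kit- and Lgr5-expressing progenitors, whose daughters pass through stages that express the proneural factors Neurog1 and Neurod1 before they become neurons, while Mki67 and Top2a are transcribed in any cell in cycle.

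The libraries held 5438494 to 9707592 estimated counts (median 7305895), and between 16194 and 17615 genes had a count. The tissue label fitted the markers: Omp, the marker of mature olfactory sensory neurons (OSNs), reached 3298 to 11982 CPM in every library. CPM are counts scaled to a library total of 1000000, after each total was adjusted by the TMM scaling described with the processing. The 3 libraries of day 21 held 14 to 19 counts of Xist and 0 of Ddx3y. The other 6 held 0 to 2 and 2 to 85 counts. Age, litter and sex therefore cannot be told apart in any comparison of days. The labels of the day 22 libraries start with YJC, and those of all other libraries with YJE. Every comparison with day 22 thus also takes in any difference between these label series, which was not tested. Intervals of counts cover counting error only, since reads came from amplified cDNA without molecular identifiers, and p-values measure the spread between these mice.

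All 9 genes passed the filter on low counts, which 14930 genes passed in all. Per kilobase of transcript, Krt5 had the highest mean level, 21.0 CPM per kb (range over the 9 mice 7.65 to 49.3), followed by Neurod1 at 14.3 (7.34 to 31.4) and Krt14 at 11.2 (5.16 to 18.8). Neurog1 at 6.51, Top2a at 5.81 and Kit at 4.13 CPM per kb came next. The ranges of these neighbours overlapped, so their order was not separated by the spread between mice. Per the study's methods the cDNA was made with a poly-T primer. Whether counts rise with transcript length was not tested, so the order also depends on the division by length. Mki67 at 1.32 and Lgr5 at 1.27 CPM per kb were close to equal on average, yet Mki67 ran from 0.0341 to 2.60 and Lgr5 only from 0.478 to 2.17. Trp63 was lowest, at 0.279 CPM per kb, with 2 to 26 counts in a library, so its values rest on few reads. Reads were unique to the gene for 87.4 to 95.6% of Krt5 counts but for only 51.2 to 65.6% of Krt14 counts, the rest being shared with similar loci, which leaves the level of Krt14 uncertain.

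In the GRCm38 build, the HBC keratins lie at chr15:101707070-101712898 (Krt5, minus strand) and chr11:100203162-100207548 (Krt14, minus strand), and Trp63 spans chr16:25683763-25892102 on the plus strand. Kit, the receptor of stem cell factor, spans chr5:75574916-75656722 (plus strand), and Lgr5, a receptor of R-spondins, spans chr10:115450311-115587780 (minus strand). Neurog1 (chr13:56250478-56252163) and Neurod1 (chr2:79452521-79456751) are short genes on the minus strand. Mki67, whose protein coats mitotic chromosomes, lies at chr7:135689784-135716361, and Top2a, which encodes the topoisomerase that untangles sister chromatids, at chr11:98992943-99024189, both on the minus strand.

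**Figure D1:**
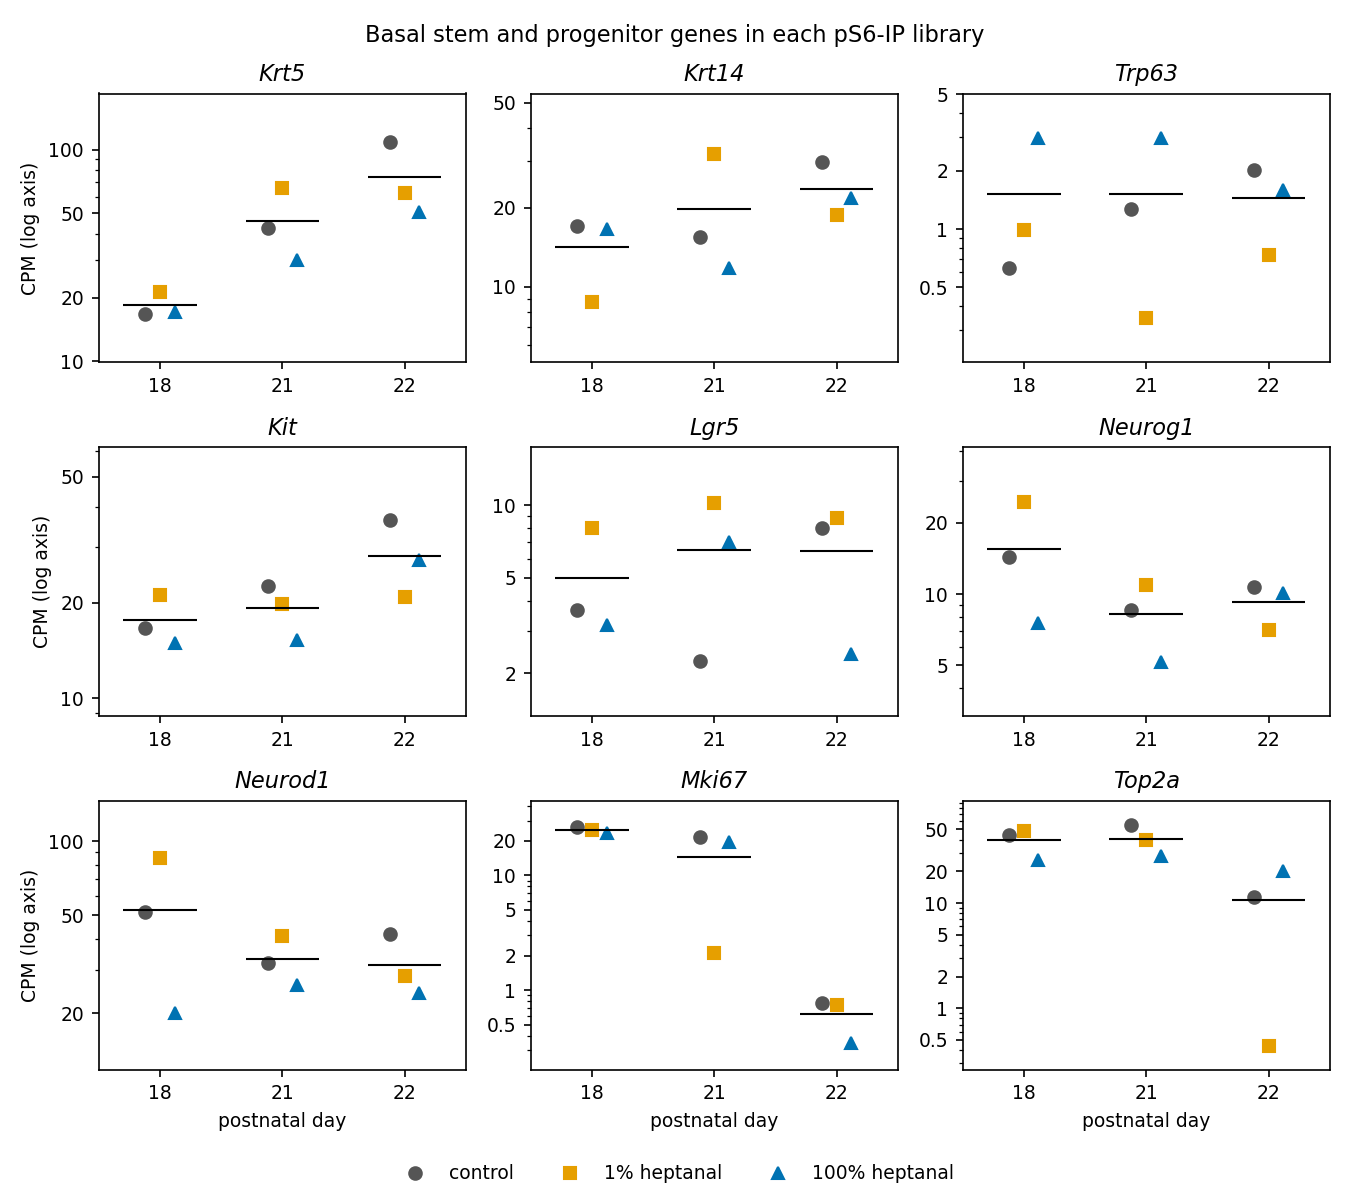
CPM of each of the 9 genes (vertical log axis) in each library, by postnatal day (horizontal axis), with a grey circle for control, an orange square for 1% heptanal, a blue triangle for 100% heptanal and a line at the mean of each day. Mki67 sat between 23.2 and 26.2 CPM in the 3 mice of day 18 and under 1 CPM in the 3 mice of day 22, whereas Krt5 ran the other way.

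Promoters are shown for Mki67 and Top2a, the members that were both above day 22 in every mouse of the other days, and for Krt5, which was lower in every mouse of day 18 than on the other days. Sequences are the 250 bases before the transcription start in RefSeq (GRCm38.p6, which had entries for 7 of the 9 genes), written 5′ to 3′ on the gene's strand. Capitals mark CCAAT, the motif bound by NF-Y, and TTTGAA, the core of the cell cycle homology region, each searched on both strands (ATTGG and TTCAAA on the other), with no overlap between matches.
Mki67, chr7:135716380-135716629, minus strand: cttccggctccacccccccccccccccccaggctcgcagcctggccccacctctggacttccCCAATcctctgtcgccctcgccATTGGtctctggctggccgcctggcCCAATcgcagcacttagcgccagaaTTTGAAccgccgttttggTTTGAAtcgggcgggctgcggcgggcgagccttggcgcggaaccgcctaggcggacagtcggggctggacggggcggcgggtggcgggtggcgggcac
Top2a, chr11:99024190-99024439, minus strand: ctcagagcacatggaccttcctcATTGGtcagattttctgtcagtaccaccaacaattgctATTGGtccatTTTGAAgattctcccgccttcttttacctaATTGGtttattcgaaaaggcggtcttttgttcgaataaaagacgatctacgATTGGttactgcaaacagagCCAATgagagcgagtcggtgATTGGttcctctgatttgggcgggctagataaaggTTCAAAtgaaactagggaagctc
Krt5, chr15:101712906-101713155, minus strand: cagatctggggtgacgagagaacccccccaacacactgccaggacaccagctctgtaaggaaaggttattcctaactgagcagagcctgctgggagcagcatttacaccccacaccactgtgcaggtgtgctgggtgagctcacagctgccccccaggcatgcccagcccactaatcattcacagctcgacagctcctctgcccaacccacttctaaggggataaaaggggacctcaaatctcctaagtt
The Mki67 promoter held 3 matches to CCAAT and 2 to TTTGAA, and that of Top2a held 6 and 2. The Krt5 window had 0 of either, which says only that these letters are not in it. Among all 32851 promoters of the same length, 33.8% held CCAAT, 16.0% held TTTGAA and 5.55% held both. Of the 25 genes with a promoter on a list of cell cycle genes, which include Mki67 and Top2a, 22 (88%) held CCAAT and 8 (32%) held both motifs. A gene of the list was counted if any of its promoters had the match, while the shares over all promoters count each promoter. The shares are therefore not in the same unit.

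Heptanal left none of the 9 genes past the threshold of an adjusted p of 0.05. In 100% heptanal against control, edgeR's quasi-likelihood test called 0 of the 9, beside 0.0134% of all genes tested, and 8 of the 9 had fold changes below 0 with a median log2 fold change of -0.39 (all genes -0.03). In 1% heptanal against control 0 of 9 were called (0.0% of all genes), 6 lay below 0 and their median was -0.17. In 100% against 1% heptanal 0 of 9 were called (0.0134% of all genes), 7 lay below 0 and their median was -0.28. These comparisons share libraries. At an unadjusted p under 0.05 there were 0, 0 and 2 members, and DESeq2 also called 0 members in each. With postnatal day as a replicate block, the calls over all genes went from 2 to 48 (0.322%), stayed at 0 (0.0%) and went from 2 to 12 (0.0804%), and again took in 0 of the 9.

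The HBC genes were spread widely within each group. Krt5 read 108, 42.8 and 16.8 CPM in the control mice of days 22, 21 and 18, then 62.7, 65.8 and 21.3 in 1% and 50.6, 30.0 and 17.2 in 100% heptanal. The groups overlapped, and the mouse of day 18 was the lowest in each of them. Krt5 had a log2 fold change of -0.78 in 100% heptanal against control (SE 0.70, edgeR adjusted p 1.00), which became 0.13 without the control mouse of day 22. With the replicate block it was -0.57 (SE 0.29, edgeR adjusted p 0.537). Within days 22, 21 and 18, Krt5 in 100% heptanal was 0.467, 0.701 and 1.02 times control. Krt14 ranged from 8.76 to 32.0 CPM over the 9 mice, with a log2 fold change of -0.32 (SE 0.48), or -0.28 (SE 0.42) with the block. The value without the block too turned, to 0.04, without the same mouse. Leaving out that mouse, with no block, kept day 22 in the heptanal groups alone, so those values also take in differences between days. Trp63 read 2.01, 1.27 and 0.632 CPM in control mice, 0.737, 0.347 and 0.984 in 1% and 1.60, 2.95 and 2.96 in 100% heptanal. Each of the 3 mice in 100% heptanal lay above all 3 in 1% heptanal, as did 4.74% of all genes. That difference was 1.81 on the log2 scale (95% interval 0.23 to 3.39, edgeR p 0.0294, adjusted p 1.00), on 2 to 26 counts in a library.

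Of the GBC genes, Lgr5 varied more than Kit. Lgr5 read 8.05, 2.25 and 3.67 CPM in the control mice of days 22, 21 and 18, 8.85, 10.2 and 8.07 in 1% heptanal and 2.40, 7.01 and 3.19 in 100% heptanal. All 3 mice in 1% heptanal were above the controls, a separation seen for 2.28% of all genes, and above those in 100% heptanal, where 100% was lower for 4.15% of all genes. The log2 fold changes were 0.96 in 1% heptanal against control (SE 0.58, 95% interval -0.35 to 2.26) and -1.11 in 100% against 1% (SE 0.58, -2.42 to 0.20), each with an edgeR adjusted p of 1.00. Against control within the same day, 100% heptanal gave 0.298, 3.11 and 0.870 times the control level, so the days did not run one way. Kit stood at 16.7 to 36.4 CPM in controls, 19.8 to 21.2 in 1% and 14.9 to 27.3 in 100% heptanal, and its interval for 100% heptanal against control ran from -1.19 to 0.41 on the log2 scale.

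Neurod1, which acts downstream of Neurog1 in neuronal precursors, was below control in 100% heptanal on all 3 days, as were Krt14, Kit, Neurog1 and Mki67. Of all genes, 47.7, 50.3 and 52.7% were below control on days 22, 21 and 18, and the share below on all 3 days was not counted. Neurod1 read 41.8, 32.1 and 51.6 CPM in control mice of days 22, 21 and 18, 28.5, 41.2 and 85.7 in 1% heptanal, and 24.1, 26.1 and 20.0 in 100% heptanal. All 3 mice in 100% heptanal were lower for 3.54% of all genes against control and 4.15% against 1% heptanal. For Neurod1 they were below every mouse of both other groups, a share not counted over all genes. The log2 fold change against control was -0.84 (SE 0.39, 95% interval -1.73 to 0.06, edgeR p 0.0628, adjusted p 1.00), and within days 100% heptanal was 0.577, 0.812 and 0.389 times control. With the replicate block it was -0.78 (SE 0.33, p 0.0425, adjusted p 0.458). Against 1% heptanal the value was -1.15 (SE 0.40, p 0.0179, adjusted p 1.00). Neurog1, the factor that commits progenitors to the neuronal fate, was at 0.941, 0.604 and 0.526 times control on the same days (log2 fold change -0.56, SE 0.49), and its groups overlapped. On a list of immediate neuronal precursor genes, 9 were tested against control in 100% heptanal, 6 below 0 and 3 above, with a median of -0.01. The HBC list had 8 below 0 and 2 above (median -0.30), and the GBC list 5 and 2 (-0.16). Each list had 0 called, beside 0.0134% of all genes, whose median was -0.03. Over the 9 mice the log2 levels of Neurog1 and Neurod1 had a Pearson r of 0.880 (Spearman's rho 0.80), the highest of the 36 pairs of members.

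Mki67 and Top2a could not be compared closely between treatments, because the spread across days was large. Their log2 fold changes in 100% heptanal against control were -0.17 (SE 1.54) and -0.59 (SE 1.07). With the replicate block these were -0.27 (SE 0.62) and -0.15 (SE 0.77), so differences of over 1.1 log2 units in either direction remain inside both intervals (-1.68 to 1.14 and -1.90 to 1.60). On the list of 29 cell cycle genes, which includes both, 0 were called in 100% heptanal against control, and 28 of 29 had fold changes below 0 (26 with the block), with a median of -0.52. For all genes, 46.8% lay above 0 and the median was -0.03. Mcm6, a subunit of the replicative helicase, had a log2 fold change of -0.56 (SE 0.18, edgeR adjusted p 0.979), Pcna, the sliding clamp of DNA replication, -0.36 (SE 0.33) and Cenpf, a kinetochore protein, -0.89 (SE 1.02).

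Summed over the 29 genes, controls of days 22, 21 and 18 stood at 980, 1108 and 1151 CPM, 1% heptanal at 959, 986 and 1127, and 100% heptanal at 636, 772 and 760. The 3 sums in 100% heptanal were the lowest. Without Cenpf they stood at 511, 677 and 742 CPM, and the last was then above the control of day 22, at 735. Within days 23, 25 and 25 of the 29 genes were below control in 100% heptanal, beside 47.7, 50.3 and 52.7% of all genes. Markers of other cells moved with this. The 10 OSN genes of a list that includes Omp all lay above 0 (median 0.69, 0 called, 3 with the block), and their summed level was 4980 to 10246 CPM in controls, 7323 to 9877 in 1% and 12257 to 17393 in 100% heptanal. The 6 sustentacular cell genes also lay above 0, with sums of 7065 to 8403 in controls and 9402 to 12218 in 100% heptanal. Other lists lay below 0 like the cell cycle genes, with medians of -0.52 for Bowman gland (4 of 4 genes below 0), -0.87 for red cells (5 of 5), -0.69 for squamous epithelium (5 of 6) and -0.34 for mesenchyme (5 of 6), and 0 called in each. No gene of these lists was at 0 in all mice, and their part in the lower sums of the cell cycle genes was not tested.

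Scaling each library by 5 OSN markers (Omp, Adcy3, Ano2, Cnga2 and Gnal) in place of all genes, with the block, moved the median of all genes by -0.80 in 100% heptanal against control and called 2654 genes, of which 57 were higher. Krt5 (-1.34, edgeR adjusted p 0.0292), Kit (-1.18, 0.0353), Neurog1 (-1.36, 0.0378) and Neurod1 (-1.59, 0.0208) were then among the calls. Relative to the shifted median they stood at -0.54, -0.38, -0.55 and -0.79. In 100% against 1% heptanal, 4657 genes were called around a median of -0.84, and 6 of the 9 members were among the lower ones: Krt5, Krt14, Kit, Lgr5, Neurog1 and Neurod1, with adjusted p from 0.00801 to 0.0468. Without the block this scaling called 0 genes in either comparison.

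**Figure D2:**
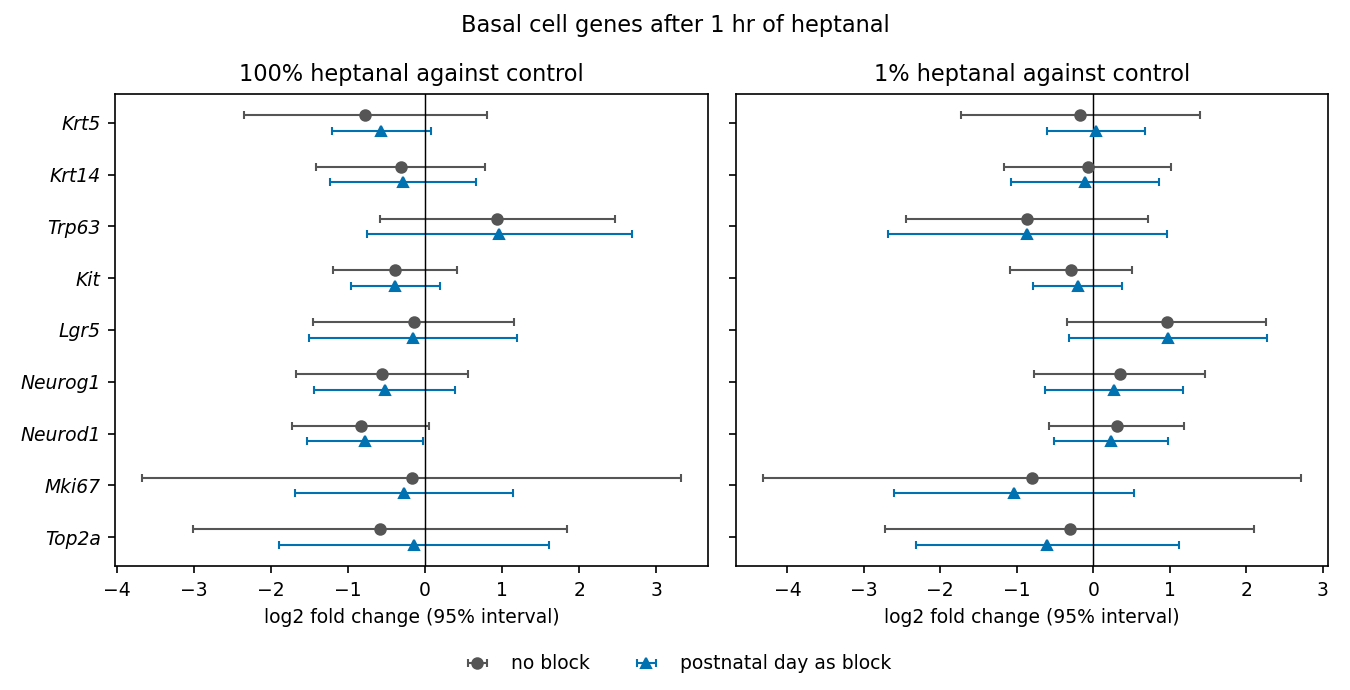
Log2 fold change of each gene with its 95% interval (horizontal axis) in 100% heptanal (left) and 1% heptanal (right) against control, without a block (grey circles) and with postnatal day as a block (blue triangles). The intervals cross 0 for all 9 genes without the block, and with it only that of Neurod1 in 100% heptanal, -1.53 to -0.03, does not.

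Between postnatal days the basal genes split. Mki67 was higher and Krt5 lower at day 18 than at day 22, each past the threshold, while Top2a ran with Mki67 and Krt14 and Kit with Krt5 without passing. At day 18 against day 22, edgeR called 1 of the 9 higher and 1 lower, beside 18.0% and 11.8% of all genes (29.8% in all). At day 21 against day 22 it called 1 higher and 0 lower, beside 12.4% and 5.61% (18.0% in all), and at day 18 against day 21 it called 0 in either direction, beside 0.442% and 1.21% (1.65% in all). These 3 comparisons share libraries, and the shares of members called were not far from those of all genes. At an unadjusted p under 0.05 the last comparison had 1 member (Krt5), and DESeq2 called 1.

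Mki67 read 26.2, 24.7 and 23.2 CPM at day 18 in control, 1% and 100% heptanal, 21.6, 2.08 and 19.5 at day 21, and 0.774, 0.737 and 0.343 at day 22. The mice of day 22 were below all others, on 5, 5 and 3 counts, and the mouse of day 21 in 1% heptanal, with 12 counts, stood far below its littermates. At day 18 against day 22 the log2 fold change was 5.41 (SE 0.77, edgeR adjusted p 0.00156), a 42.6-fold difference, and the ratio of the summed counts, 662 against 13, had an exact 95% counting interval of 24.7 to 80.3. For day 21 against day 22 it was 4.37 (SE 0.78, adjusted p 0.00725), a call lost without the control mouse of day 22 (4.33, adjusted p 0.0539). All 3 mice of day 18 were also above those of day 21, as for 14.0% of all genes, but the difference of 1.05 (SE 0.60, adjusted p 0.390) did not pass.

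Top2a read 44.2, 48.6 and 25.5 CPM at day 18, 54.8, 40.0 and 28.0 at day 21 and 11.3, 0.442 and 20.0 at day 22, in the same order of groups. Its 3 mice of day 22 were below all 6 others, like those of Mki67, and the mouse in 1% heptanal, with 3 counts, was lowest. All mice of day 18 were above those of day 22 for 24.6% of all genes, and all mice of day 21 above those of day 22 for 19.2%. The log2 fold changes were 2.04 (SE 0.82, edgeR adjusted p 0.0939) and 2.04 (SE 0.81, adjusted p 0.117), and 0.00 between days 18 and 21. Without the mouse of day 22 in 100% heptanal, both passed, at 3.30 (adjusted p 0.0134) and 3.30 (adjusted p 0.0188).

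The cell cycle list did not move as one. At day 18 against day 22, 9 of 29 genes were called higher and 2 lower (18.0% and 11.8% of all genes), with a median of 0.34 (all genes 0.02). Pcna rose by 0.83 (SE 0.14, edgeR adjusted p 0.00303), whereas Cenpf fell by 3.17 (SE 0.23, adjusted p 0.000200), and Cenpe, a kinetochore motor named here after its values were seen, fell by 1.81 (adjusted p 0.00489). Cenpf read 16.7, 25.0 and 18.1 CPM at day 18 in control, 1% and 100% heptanal, 179, 135 and 95.1 at day 21 and 245, 194 and 124 at day 22, so its order of days was opposite to that of Mki67 in all 3 groups. Against day 22, 5 genes were higher at day 21, among them Pcna (0.76) and Nusap1, a spindle protein (3.22), and 1 was lower, Ube2c (-0.65), named after its values were seen, beside 12.4% and 5.61% of all genes. Between days 18 and 21, Cenpf alone was called (-2.72, adjusted p 0.00109).

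The genes most like Mki67 over the 9 mice, by Pearson r of log2 CPM among all genes tested, were Usp1, a deubiquitinase (0.997), Ppp1r15b, a phosphatase subunit (0.996), and Cops2, a subunit of the COP9 signalosome (0.994). Usp1 read 92.6, 100 and 67.1 CPM at day 18, 82.4, 5.91 and 67.5 at day 21 and 1.39, 1.33 and 0.914 at day 22, in control, 1% and 100% heptanal. The same 4 libraries were low for these 3 genes as for Mki67, the 3 of day 22 and that of day 21 in 1% heptanal. These 4 libraries also had the fewest genes with a count, 16194 to 16784 against 17342 to 17615 in the others. What part this had in the differences of Mki67 between days was not tested. Between day 18 and day 22 Usp1, Ppp1r15b and Cops2 differed by 6.28, 3.37 and 6.08 on the log2 scale. Genes much like Top2a included Sertad4 (r 0.991) and Mlip (0.987), and Mki67 and Top2a had an r of 0.607 with each other. These are descriptions over 9 libraries that share days and depth.

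**Figure D3:**
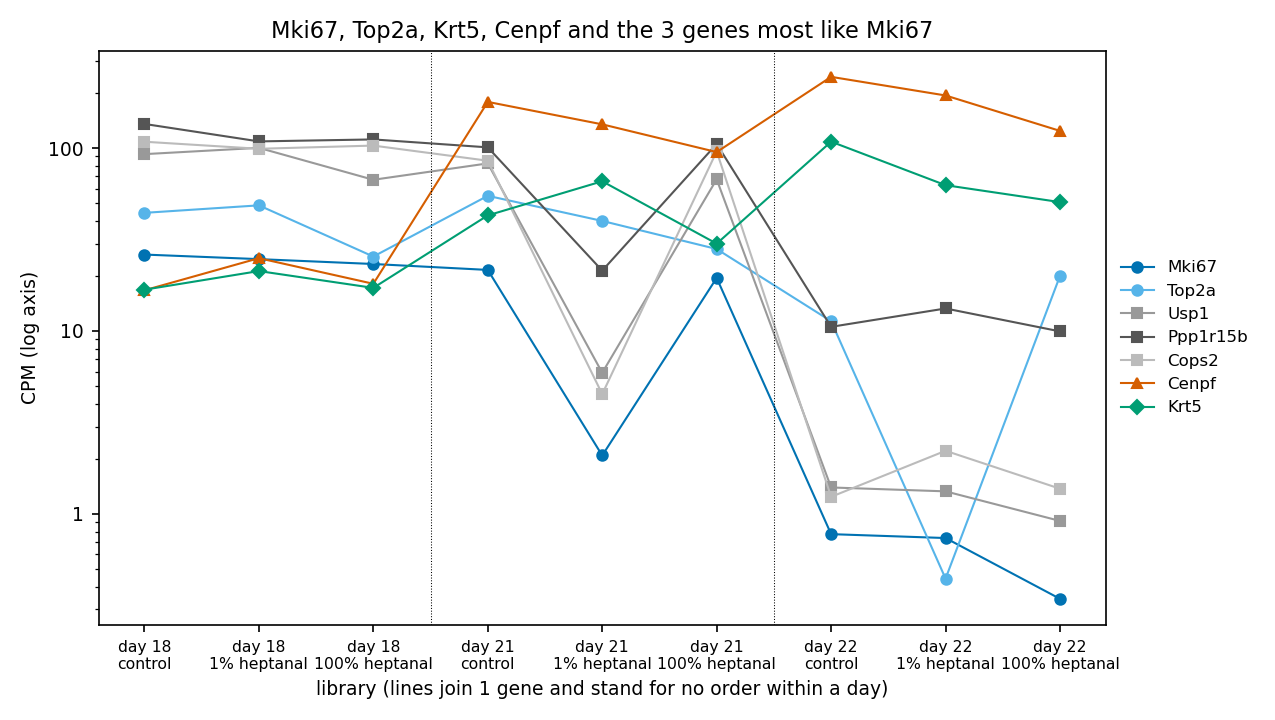
CPM (vertical log axis) of Mki67, Top2a, Krt5, Cenpf and the 3 genes most like Mki67 in each of the 9 libraries (horizontal axis, by day and treatment), 1 line for each gene. Usp1, Ppp1r15b and Cops2 dip in the libraries where Mki67 dips, Cenpf is lowest in the 3 libraries of day 18, and Krt5 is highest in the control library of day 22.

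Krt5 read 16.8, 21.3 and 17.2 CPM at day 18 in control, 1% and 100% heptanal, 42.8, 65.8 and 30.0 at day 21 and 108, 62.7 and 50.6 at day 22. The mice of day 18 were below all 6 others, while days 21 and 22 overlapped. Against day 22, Krt5 fell at day 18 by 1.96 on the log2 scale (SE 0.29, edgeR adjusted p 0.00187), 3.89-fold lower, and all 3 mice were lower for 20.0% of all genes. Against day 21 the value was -1.27 (SE 0.29, adjusted p 0.0673, and 0.00191 by DESeq2), with all 3 mice lower for 13.1% of all genes. At day 21 against day 22 it was -0.69 (SE 0.28, adjusted p 0.126). Krt14, the partner keratin, read 17.1, 8.76 and 16.5 CPM at day 18 and 29.9, 18.7 and 21.7 at day 22. Those days did not overlap either, but the difference of -0.72 (SE 0.42, adjusted p 0.229) passed only without the mouse of day 21 in 1% heptanal, whose 32.0 CPM was the highest of all (-0.76, adjusted p 0.0429). Trp63, at 0.632 to 2.96 CPM on day 18 and 0.737 to 2.01 on day 22, had a log2 fold change of -0.05 (SE 0.77).

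On the list of 10 HBC genes, 5 were called lower and 1 higher at day 18 against day 22 (11.8% and 18.0% of all genes), and the median was -1.15 (all genes 0.02). Col17a1, a hemidesmosomal collagen, fell by 2.52 (SE 0.47, edgeR adjusted p 0.00530), and Itgb4, the integrin of hemidesmosomes, fell by 1.40 (SE 0.29, adjusted p 0.00828). Krt15 (-1.13) and Itga6 (-0.61) were the other 2 beside Krt5, and Cd44, a hyaluronan receptor also found on many other cells, rose by 2.39 (adjusted p 0.00893); these 3 were named after their values were seen. Summed over the list, day 18 stood at 191 to 234 CPM, day 21 at 246 to 332 and day 22 at 338 to 563, without overlap. Krt15 alone gave 57.3 to 221 CPM of these sums. In 1% heptanal it read 92.6 CPM at day 21 and 129 at day 22, in sums of 332 and 338, so the gap between days 21 and 22 rests on Krt15. The 6 markers of squamous epithelium, which shares these keratins, had a median of -1.23, with 5 below 0 and none past the threshold. None was at 0 in all mice, and they summed to 258 CPM in the control mouse of day 22 and to 30.9 to 82.5 in the other 8. Markers of red cells, from 1047 to 1699 CPM at day 18 and from 5800 to 12476 on the other days, differed too (5 of 5 lower at day 18 than at day 22), and the part of either in the day differences was not tested. Without the control mouse of day 22, Krt5 was -1.58 (adjusted p 0.0164). Over the 9 mice Krt5 was most like Mxra8 (r 0.986), Cul7 (0.986) and Ahi1 (0.985), and among members it had an r of 0.772 with Kit, 0.713 with Krt14 and -0.831 with Mki67.

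Kit read 16.7, 21.2 and 14.9 CPM at day 18 in control, 1% and 100% heptanal, 22.5, 19.8 and 15.3 at day 21 and 36.4, 20.8 and 27.3 at day 22. The days overlapped, and the log2 fold changes against day 22 were -0.66 at day 18 (SE 0.25, edgeR adjusted p 0.0800) and -0.56 at day 21 (SE 0.25, adjusted p 0.163). The first passed without the mouse of day 22 in 1% heptanal (-0.96, adjusted p 0.0229) or that of day 18 in 1% heptanal (-0.91, adjusted p 0.0467). Kit is also a mast cell gene, and the 6 other mast cell markers on a list summed to 0.686 to 3.82 CPM in a library, with 2 of them at 0 in all mice. Lgr5 lay between -0.42 and 0.01 in the 3 comparisons of days, with SEs of 0.57 to 0.58. On the list of 8 GBC genes, 7 were tested and 2 were called at day 18 against day 22, a share close to the 29.8% of all genes. Both were higher: Sox2, a stem cell factor also found in sustentacular cells (1.69, SE 0.20, adjusted p 0.000759), and Ezh2, the methyltransferase of Polycomb complex 2 (1.96, SE 0.60, adjusted p 0.0375). Sox2 was also higher at day 18 against day 21 (1.03, adjusted p 0.0430).

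Neurog1 and Neurod1 were highest at day 18 in 1% heptanal, at 24.5 and 85.7 CPM, and Neurod1 was lowest on the same day in 100% heptanal, at 20.0 CPM. Their differences at day 18 against day 22 were 0.56 (SE 0.41, edgeR adjusted p 0.329) and 0.57 (SE 0.33, adjusted p 0.225), within the spread between mice. On the list of immediate neuronal precursor genes, 1 of 9 tested was called, beside 29.8% of all genes. This was Ebf2, a factor of differentiating neurons, which rose by 2.25 (SE 0.25, adjusted p 0.000610). Ebf2 also rose at day 21 against day 22 (2.17, adjusted p 0.00147).

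By the same measure of likeness over the 9 mice, Neurog1 was closest to Tubb5, a tubulin abundant in young neurons (r 0.967), then Fubp1 (0.938) and Srsf7 (0.930). Neurod1 was closest to Mycl1, of the Myc family (0.959), then Srsf7 (0.957), which the pair shared, and 5430403N17Rik (0.935). Kit was closest to Ppil4 (0.961), Tnpo3 (0.961) and Ankdd1b (0.955), and Lgr5 to Ranbp17 (0.955), Mettl24 (0.942) and Atxn7l2 (0.905). Krt14 was closest to Lin37 (0.954), Nek5 (0.954) and Megf6 (0.951), and Trp63 to Olfr533 (0.950), Ttll10 (0.933) and Tapbpl (0.903). None of these was a gene of the 4 lists on basal, precursor and cycling cells.

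**Figure D4:**
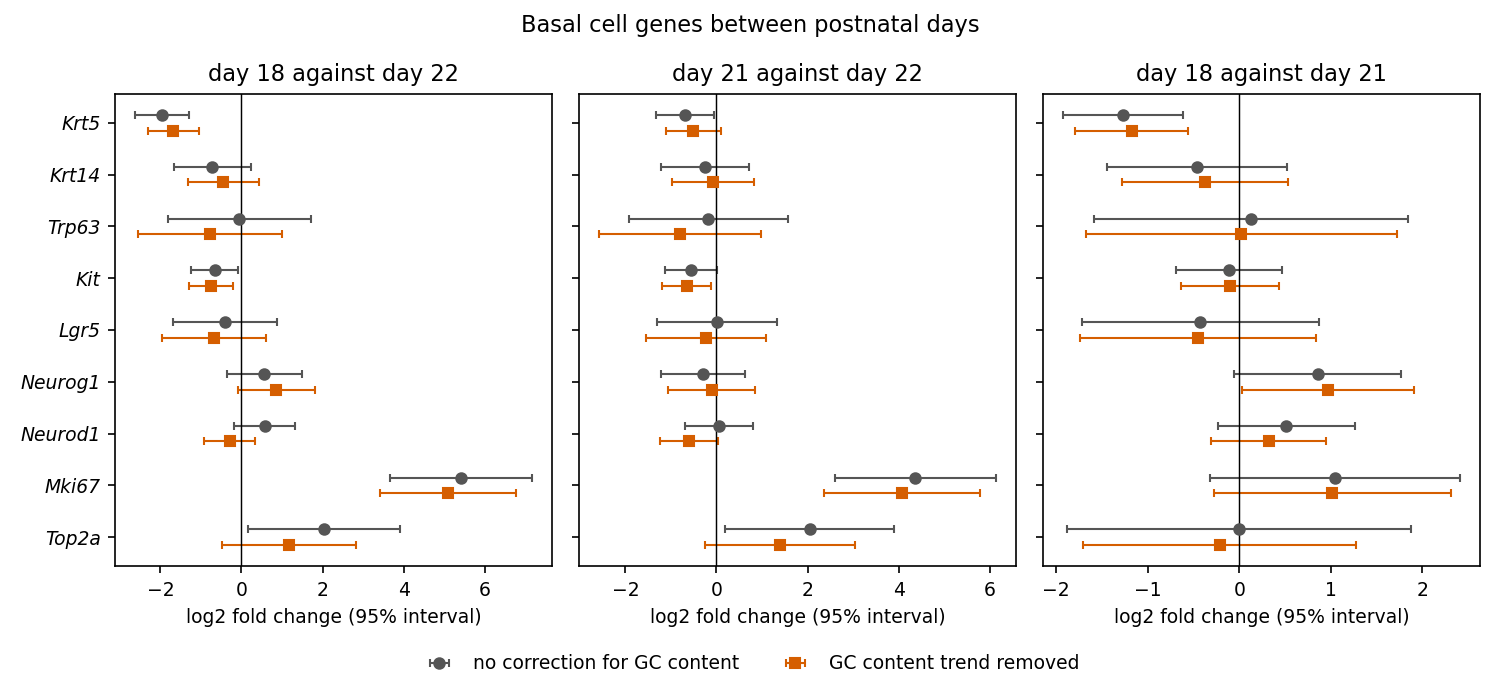
Log2 fold change of each gene with its 95% interval (horizontal axis) at day 18 against 22, day 21 against 22 and day 18 against 21, as fitted (grey circles) and with each library's trend on GC content removed (orange squares). Mki67 lies above 4 in both comparisons with day 22, Krt5 lies below 0 in all 3, and Neurod1 crosses to below 0 against day 22 once the trend is removed.

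Differences between days varied with the GC content of the transcript. Over 14079 genes (94.3% of those tested), the log2 fold change at day 18 against day 22 had a Spearman's rho of -0.504 with GC content, across genes, which are not independent replicates. The fifth of genes with the lowest GC content had a median of 1.29 and the fifth with the highest -0.27. Mki67 (46.6% GC), Top2a (43.4%) and Neurod1 (43.6%) are lower in GC than Krt5 (56.9%), Krt14 (57.2%) and Neurog1 (58.0%). With each library's trend on GC content removed, Mki67 stood at 5.09 (edgeR adjusted p 0.00167) and Krt5 at -1.68 (adjusted p 0.00294), while Top2a fell back to 1.17 (adjusted p 0.266). Neurod1 turned to -0.29 and Kit passed at -0.75 (adjusted p 0.0441). The HBC list kept its counts of 5 lower and 1 higher, and the cell cycle list had 5 higher and 2 lower.

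The balance of higher and lower calls depended on the scaling. Of all genes called at day 18 against day 22, 60.4% were higher, and 81.2% with libraries scaled by the 5 OSN markers, which put the median of all genes at 0.15. At day 21 against day 22 the share went from 68.9% to 31.1% (median -0.61), and at day 18 against day 21 from 26.8% to 98.1% (median 0.77). With the GC trend removed, it was 51.3% and 53.1% in the first 2. Under the scaling by OSN markers Mki67 and Krt5 were still called at day 18 against day 22, and Top2a joined them at 2.36 (edgeR adjusted p 0.000255), beside 3231 of 14930 genes. Against day 22, Krt5 (-1.29, adjusted p 0.00797), Kit (-1.15, 0.0181) and Top2a (1.63, 0.0129) joined Mki67 at day 21, beside 4338 of all genes. Relative to the shifted median, Krt5 stood there at -0.68, Kit at -0.54 and Top2a at 2.24. Between days 18 and 21, Mki67 (1.79, adjusted p 0.0125), Neurog1 (1.58, 0.0123) and Neurod1 (1.21, 0.0200) were called, all higher at day 18. All genes had 3751 calls in that comparison, 3681 of them higher. Relative to the shifted median, Mki67, Neurog1 and Neurod1 stood at 1.02, 0.81 and 0.44.

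**Figure D5:**
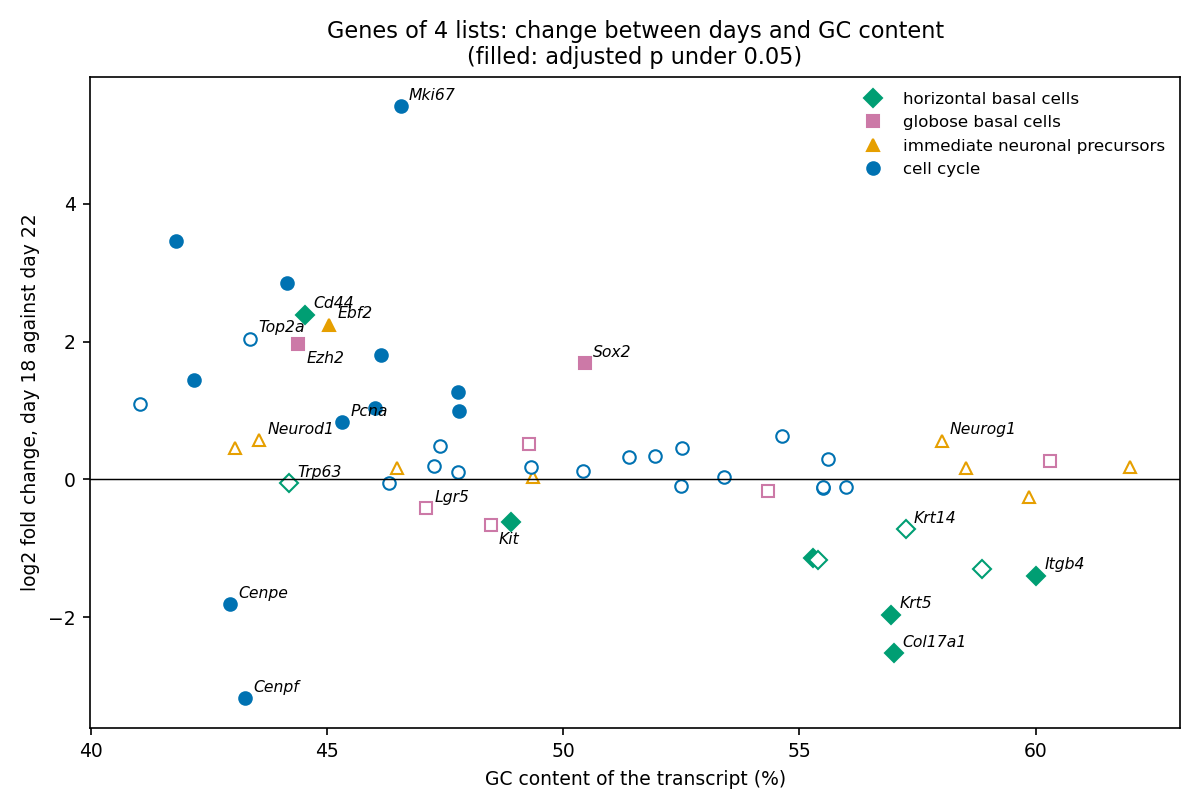
Log2 fold change at day 18 against day 22 (vertical axis) against the GC content of the transcript in percent (horizontal axis) for the genes of the HBC, GBC, immediate neuronal precursor and cell cycle lists, with filled symbols for genes past an adjusted p of 0.05. Most HBC genes lie low and at high GC content, Mki67 lies highest at 46.6%, and Cenpf and Cenpe lie low at a GC content similar to that of Top2a.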

How the data were processed

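The 9 pS6-IP libraries of 3 groups were analysed, each in a table without a header. Per the labels and the methods, Bowtie alignment to mm10 and gene counting by bedtools were done by the authors, who gave back multi-mapped reads by a rescue scheme. Versions were not given in the sources used here. Column 21 of each deposited table holds the estimated counts, which need not be whole and were rounded here, and column 2 the deposited counts of uniquely mapped reads, used as an alternative. Between 23.9 and 30.5% of a library's counts came from rescued reads. Groups and days came from the labels.

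The main test was edgeR's quasi-likelihood test (version 4.0.16, R 4.3.3), run after filterByExpr (minimum count 10 and minimum total 15) and TMM scaling, with Benjamini-Hochberg adjustment over all 14930 genes tested, threshold 0.05. The treatment fit held the group alone, and the day fit held group and day. CPM are estimated counts scaled to a library total of 1000000, where the total is that of the genes that passed the filter, adjusted by the TMM factor. DESeq2 1.42.0 was an alternative, with other scalings, no filter, unique counts and each mouse left out. The correction for GC content (lowess, span 0.3), the fits that combine a block with another choice and the fit without day 22 were chosen after seeing the data. Steps were tested on simulated data.

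Mice of the same day were littermates per the methods, and their deviations from the group means correlated in all 9 pairs (r 0.155 to 0.730, mean 0.540), so day was used as the replicate block. The 18 other pairs had a mean of -0.253, which subtracting the group means ties to the mean of the first pairs, so it is no separate evidence. No 2 libraries of the same group agreed within sampling noise, and libraries of different groups were not compared in this way. The members and lists were chosen with earlier results of these data known. Besides the 9 members, up to 3 genes of a list were named in a comparison, those called with the lowest p or else those with the highest mean CPM, and the 3 genes with the highest r for each member, of which 1 is not reported here. Gene positions, lengths and GC content came from GENCODE on GRCm38, the same assembly as mm10.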

Additional observations from a re-analysis of the deposited data

How the results depend on the processing

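Over all genes, alternatives moved the counts of calls both in the treatment comparisons and in those of days. In 100% heptanal against control, 2 calls became 48 with the replicate block, 68 with DESeq2, 0 with scaling by OSN markers, 2654 with the block and that scaling, 1 with the GC trend removed, 62 with the block and the GC trend removed and 1 without day 22. In 1% heptanal against control, 0 became 1 with DESeq2, 3 with the block and scaling and 1 with the block and the GC trend removed. In 100% against 1% heptanal, 2 became 12 with the replicate block, 25 with DESeq2, 0 with scaling, 4657 with the block and scaling, 1 with the GC trend removed, 12 with the block and GC trend removed and 0 without day 22. Scaling by OSN markers gave 4338 calls at day 21 against day 22 (from 2690) and 3751 at day 18 against day 21 (from 246), where DESeq2 gave 856 and leaving out day 22 gave 140. Leaving out each mouse gave 1 to 2, 0 to 0 and 0 to 3 calls in the treatment comparisons in this order, 945 to 2846 at day 21 against day 22, 2391 to 4412 at day 18 against day 22 and 47 to 311 at day 18 against day 21. The counts moved by over 1.5 times without the control of day 22 (1032), the control of day 21 (945) or 100% heptanal of day 21 (1033) in the first of these, without the control of day 22 (2391) or of day 18 (2809) in the second, and without any of 7 mice in the third.

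Some members without a call changed sign. In 100% heptanal against control Lgr5 was 0.77 without day 22. In 1% heptanal against control Krt5 was 0.0387 with the replicate block, 0.11 when scaling joined it and 0.53 without day 22, where Krt14 was 0.30 and Kit 0.0541. In 100% against 1% heptanal Mki67 was -0.13 with scaling, and Top2a was 0.45 with the replicate block and 0.19 with the block and GC trend removed. At day 21 against day 22 Trp63 was 0.0837 without the group term, Lgr5 was -0.0032 with DESeq2, -0.0006 with its size factors, -0.58 with scaling and -0.23 with the GC trend removed, and Neurod1 was -0.50 and -0.61 under the last 2. Between days 18 and 22 Trp63 was 0.0730 without the group term and 0.0092 with scaling, and Neurod1 was -0.29 with the GC trend removed. Between days 18 and 21 scaling gave Krt14 0.36, Kit 0.62, Lgr5 0.26 and Top2a 0.73, Trp63 was -0.0107 without the group term, and Top2a, which stood at 0.00, was 0.0190 with DESeq2, 0.0064 with its size factors, 0.0073 without the filter and 0.0115 with unique counts.

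Where leaving out a mouse changed a member's sign or call, the log2 fold changes ranged as follows. In 100% heptanal against control these were Krt5 -1.24 to 0.13, Krt14 -0.55 to 0.0367, Lgr5 -0.74 to 0.50, Mki67 -0.73 to 0.40. In 1% heptanal against control these were Krt5 -0.60 to 0.74, Krt14 -0.60 to 0.28, Kit -0.51 to 0.0707, Neurog1 -0.32 to 0.66, Neurod1 -0.27 to 0.60, Top2a -0.88 to 0.26. In 100% heptanal against 1% heptanal these were Krt14 -0.60 to 0.28, Kit -0.445 to 0.0530, Top2a -0.84 to 0.30. In day 21 against day 22 these were Krt14 -0.9958 to 0.0621, Trp63 -0.71 to 0.42, Lgr5 -0.63 to 0.64, Neurog1 -0.75 to 0.18, Neurod1 -0.27 to 0.25, Mki67 3.72 to 5.10, Top2a 1.20 to 3.30. In day 18 against day 22 these were Krt14 -1.07 to -0.37, Trp63 -0.57 to 0.51, Kit -0.96 to -0.47, Lgr5 -0.86 to 0.33, Top2a 1.12 to 3.30. In day 18 against day 21 these were Krt5 -1.49 to -0.95, Krt14 -0.82 to 0.24, Trp63 -0.22 to 0.65, Kit -0.35 to 0.0771, Lgr5 -0.95 to 0.26, Top2a -0.77 to 0.40. Of the calls on members, that of Mki67 and that of Krt5 at day 18 against day 22 held in all 16 alternatives run, and that of Mki67 at day 21 against day 22 in 15 of 16. Apart from values through the OSN scaling, the replicate block changed no call on a member. The causes of these changes were not tested. Few counts stood behind Trp63 (2 to 26 in a library), Mki67 at day 22 (3 to 5) and Top2a at day 22 in 1% heptanal (3).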
